A study of Mus musculus with 11 samples.

Results

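Immediate early genes are switched on within minutes of a stimulus, without the need for new protein synthesis. In neurons they are induced by synaptic activity, calcium entry and growth factors, which act on SRF with its ELK partners at CArG boxes and on CREB at cAMP response elements (CRE). Their products are transcription factors that start a later wave of transcription, and proteins that act at synapses. The open chromatin around 9 of these genes was examined: *Fos*, *Fosb*, *Jun* and *Junb*, which encode subunits of the AP-1 transcription factor, the zinc finger factor genes *Egr1* and *Egr2*, *Arc*, which encodes a synaptic protein, *Npas4*, which encodes a neuronal bHLH-PAS factor, and *Ier2*. They were chosen by name, as 9 of the 22367 protein-coding genes of the annotation, and all accessible regions overlapping a gene body or the 20 kb on each side of it were taken.

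ATAC-seq, in which a transposase inserts adapters into accessible DNA, was performed on FACS-sorted cells of E14.5 mouse embryos. DA neurons were GFP+ cells from ventral mesencephalons of TH-GFP embryos, a transgene in which the rat *Th* promoter drives GFP, and gave 3 libraries from independent sorts. 5-HT neurons were YFP+ cells from rostral hindbrain rhombomeres of Mash1-CRE x ROSA YFP embryos, and gave 2 libraries from independent sorts. Males of each line (the TH-GFP line is kept on C57BL/6J) had been mated with Swiss wild-type females. Tissue of several embryos was pooled for each sort, no stimulus was applied by design, and YFP marks cells with a history of *Mash1*, a gene of neural progenitors, and not 5-HT identity itself. Sorted cells were held in cold medium with serum before the assay, and what this handling does to these genes was not tested. Each DA sort for ATAC-seq gave more cells than either 5-HT sort. Genotype, brain region, sort and number of sorted cells go together in this design, so they cannot be told apart.

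The deposited data score 131942 regions of the mm9 genome in each library, with 0 for a region without a peak. Peaks numbered 52861, 93055 and 94351 in DA replicates 1 to 3 and 38772 and 22879 in 5-HT replicates 1 and 2. The read depth is unknown, and no source names the units of the score. Scores were therefore compared between regions of a library. Libraries were compared by percentile, the percentage of a library's own peaks with a score at or below that of the region. An alternative divided scores by the library's median, and the strongest distal region of a gene was chosen by its mean score.

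The labels were checked against marker genes. A promoter, here 1 kb upstream to 100 bp downstream of any TSS of a gene, carried a peak for 8 of 8 DA markers in each DA library and for 5 of 8 in each 5-HT library. Over all protein-coding genes, a promoter peak was present for 59.8, 63.7 and 62.0% in DA replicates 1 to 3. In 5-HT replicates 1 and 2 it was present for 58.2 and 49.6%, so that 5 of 8 is near the share of all genes. *Th*, the rate-limiting enzyme of dopamine synthesis, had promoter scores of 9.91, 10.6 and 8.45 in DA replicates 1 to 3 and was listed at 0 in both 5-HT libraries. The 5-HT markers did not separate the groups in the same way. Of 6, a promoter peak was found for 4, 5 and 4 in DA replicates 1 to 3 and for 5 and 2 in 5-HT replicates 1 and 2. The 6 include *Lmx1b*, which the authors also used as a marker of DA progenitors. Its promoter had a peak in every DA library and in 5-HT replicate 1. *Fev*, a defining transcription factor of 5-HT neurons, had a score of 3.88 in 5-HT replicate 1 and was listed at 0 in the other 4 libraries, whereas the promoter of *Tph2*, the enzyme of brain serotonin synthesis, had a peak in all 5. *Slc6a4*, the serotonin transporter, went against the label, with 4.80, 6.56 and 3.76 in the DA libraries and 0 in both 5-HT libraries. Markers of other cell types also had promoter peaks, to be read beside the same shares over all protein-coding genes. Over DA replicates 1, 2 and 3 and then 5-HT replicates 1 and 2, a peak was found for 3, 3, 3, 3 and 2 of 3 GABAergic markers, for 1, 1, 1, 1 and 0 of 2 glutamatergic markers, and for 0, 1, 0, 0 and 0 of 2 noradrenergic markers. In the same order the numbers were 3, 4, 4, 3 and 1 of 4 for astrocytes and radial glia, 1, 2, 2, 2 and 2 of 3 for the oligodendrocyte lineage, 2, 2, 2, 2 and 0 of 3 for endothelial cells, and 0, 2, 1, 0 and 0 of 2 for pericytes. The 3 microglial markers were listed at 0 in all 5 libraries. Whether such cells were among the sorted cells was not tested here. Open DNA in more of the sorted cells and more open DNA in each cell cannot be told apart.

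The promoters of the immediate early genes were open in the sorted embryonic cells of both types. A promoter peak was present in all 5 libraries for 8 of the 9 genes, against 48.5% of all protein-coding genes. When the centre of the region had to lie in the promoter, the numbers were 5 of 9 and 33.9%. *Jun*, *Egr2* and *Ier2* then no longer had such a peak in all 5 libraries. The exception among the 9 with any overlap was *Npas4*, with a peak in every DA library and no 5-HT library, a pattern shared by 1.99% of protein-coding genes. With equal numbers of peaks, the 22879 highest-scoring ones of every library (all that 5-HT replicate 2 has), 5 of the 9 genes had a promoter peak in all 5 libraries, against 38.2% of all genes. These 5 were *Fosb*, *Jun*, *Junb*, *Egr1* and *Ier2*. No gene was singled out by a test, because 3 against 2 libraries cannot give a two-sided exact permutation p below 0.2.

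Among the AP-1 genes, *Jun*, whose product pairs with FOS proteins or with itself, had the highest mean promoter percentile. Its scores were 11.6, 12.6 and 13.7 in DA replicates 1 to 3 and 7.49 and 4.48 in 5-HT replicates 1 and 2. These scores stood at percentiles of 94.5, 95.0 and 97.7 in the DA libraries (mean 95.8 ± 1.70, SD, n = 3), against 89.9 and 72.3 in the 5-HT libraries. The groups did not overlap with all peaks but did with equal numbers of peaks, and the 5-HT libraries differed from each other by more than the DA libraries did. The accessible region at this promoter, chr4:94716120-94720649, also covered most of the gene, which lies on the minus strand at chr4:94715725-94718913. *Fosb*, on the minus strand at chr7:19888070-19895394, had promoter scores of 8.51, 12.6 and 10.3 in the DA libraries and of 5.80 and 5.77 in the 5-HT libraries. Its percentiles were 84.4, 95.0 and 94.0 in DA replicates 1 to 3 and 75.3 and 87.8 in 5-HT replicates 1 and 2, so that the groups overlapped.

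*Fos*, the gene most often used as a marker of neuronal activity, had a weaker promoter peak than *Fosb* or *Jun* in all 5 libraries. The gene lies on the plus strand at chr12:86814840-86818223, and its promoter region at chr12:86813903-86816268. The scores were 5.34, 6.97 and 6.69 in DA replicates 1 to 3 and 4.79 and 3.36 in 5-HT replicates 1 and 2. Their percentiles were 53.7, 77.2 and 80.9 in the DA libraries (mean 70.6 ± 14.7, SD, n = 3), against 58.0 and 34.7 in the 5-HT libraries. DA replicate 1 thus lay below 5-HT replicate 1, and with equal numbers of peaks the order was the reverse, at 28.8 and 34.7 in the 5-HT libraries, 7.34 in DA replicate 2, 21.3 in DA replicate 3 and no peak in DA replicate 1. *Junb*, a JUN family member that also restrains the activity of JUN, lies on the minus strand at chr8:87500811-87502617 and had 2 regions at its promoter. The higher score in each library was 8.44, 6.75 and 7.06 in the DA libraries and 5.32 and 4.98 in the 5-HT libraries, at percentiles of 84.0, 75.8 and 83.0, and of 68.2 and 80.4. The groups overlapped, and in DA replicates 1 and 2 the higher score belonged to the region centred 1.23 kb upstream of the TSS.

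The zinc finger genes differed from each other. *Egr1*, on the plus strand at chr18:35020861-35024638, had promoter scores of 8.83, 10.2 and 6.46 in DA replicates 1 to 3 and of 6.77 and 3.64 in 5-HT replicates 1 and 2. The percentiles were 86.0, 90.8 and 79.4 in the DA libraries and 85.2 and 47.8 in the 5-HT libraries, where 5-HT replicate 1 fell within the DA range. *Egr2*, also known for its part in hindbrain segmentation and in Schwann cells, lies on the plus strand at chr10:66998223-67004936. It had promoter scores of 5.98, 6.29 and 6.21 in the DA libraries and of 4.89 and 3.40 in the 5-HT libraries. These stood at percentiles of 62.8, 72.5 and 77.6 (mean 71.0 ± 7.52, SD, n = 3), and of 60.0 and 37.1, without overlap. With equal numbers of peaks the order was the reverse, at 14.0 and 7.66 in DA replicates 1 and 3, no peak in DA replicate 2, and 32.2 and 37.1 in the 5-HT libraries. A second region at an internal TSS of *Egr2*, chr10:67001255-67002253 in an intron, had scores of 3.74, 3.50 and 4.12 in the DA libraries and was listed at 0 in both 5-HT libraries, and had no peak in any library with equal numbers of peaks.

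*Arc*, whose product takes part in the removal of AMPA receptors from synapses, lies on the minus strand at chr15:74499513-74503000. It had promoter scores of 5.41, 6.52 and 4.60 in DA replicates 1 to 3 and of 3.46 and 4.62 in 5-HT replicates 1 and 2. The 5-HT libraries lay on either side of the DA libraries, with percentiles of 12.3 and 74.8 against 54.8, 74.2 and 61.0. With equal numbers of peaks only 5-HT replicate 2 had a peak at this promoter. A separate region at the same promoter, chr15:74503803-74504022, centred 0.912 kb upstream of the TSS, had scores of 3.49, 6.14 and 3.13 in the DA libraries and was listed at 0 in both 5-HT libraries, and with equal numbers of peaks it had none in any library.

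*Npas4*, which is induced by calcium entry in neurons, had the weakest promoter of the 9 genes. The gene lies on the minus strand at chr19:4984355-4989971. Its promoter scores of 3.60, 4.54 and 3.58 in DA replicates 1, 2 and 3 stood at percentiles of 9.64, 51.9 and 37.4, and both 5-HT libraries were listed at 0. With 22879 peaks in each library it had no promoter peak in any of the 5. *Ier2*, a small nuclear protein gene on the minus strand at chr8:87185230-87186751, had scores of 10.2, 13.0 and 9.38 in the DA libraries and of 6.40 and 4.86 in the 5-HT libraries. The percentiles were 91.3, 95.5 and 92.0 (mean 92.9 ± 2.25, SD, n = 3) and 81.8 and 78.5, and the groups did not overlap with all peaks but did with equal numbers of peaks. In all 5 libraries the score of *Ier2* came from a region centred 1.24 kb upstream, chr8:87187603-87188381, and not from the region over the TSS, chr8:87185926-87187058, with scores of 8.04, 10.3, 7.13, 4.60 and 3.66 in the same order.

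**Figure D1:**
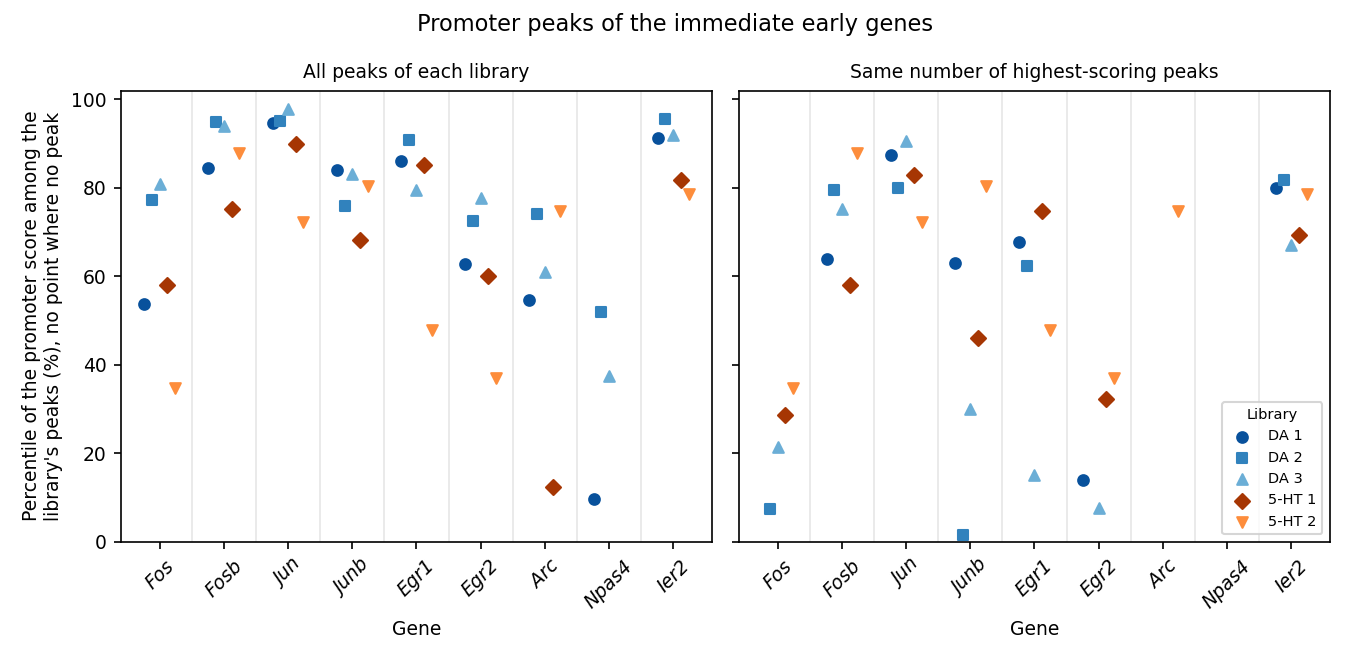
Percentile of the promoter score among the peaks of a library (%), for each gene and each of the 5 libraries, with all peaks (left) and with the 22879 highest-scoring peaks of each library (right). Points are single libraries, and a missing point means no peak. On the left, the DA points of *Jun*, *Egr2* and *Ier2* lie above both 5-HT points, and on the right no gene with 5 points is separated.

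By the mean percentile over the 5 libraries, the order was *Jun* (89.9), *Ier2* (87.8), *Fosb* (87.3), *Junb* (78.3), *Egr1* (77.8), *Egr2* (62.0), *Fos* (60.9) and *Arc* (55.4), with *Npas4* at 33.0 over its 3 DA libraries. Neighbours in this order differed by less than the range of their libraries. By this mean the genes did not stand above other promoters: the median of these means was 78.0 for the 8 genes and 82.2 for the 10843 protein-coding genes with a promoter peak in all 5 libraries. Within the peaks at protein-coding promoters alone, the median percentile of the members was 62.9, 40.3 and 45.1 in DA replicates 1 to 3 and 52.1 and 58.6 in 5-HT replicates 1 and 2.

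DA and 5-HT neurons were compared at the 8 promoters with a peak in all 5 libraries. The lowest DA percentile was above the highest 5-HT percentile for 3 of 8 genes, *Jun*, *Egr2* and *Ier2*, against 57.1% of all protein-coding promoters, and the reverse held for 0 of 8, against 0.553%. A random order of 5 libraries gives 10% for each. *Jun*, *Egr2* and *Ier2* are the genes that lost their promoter peak in all 5 libraries when the centre of the region had to lie in the promoter. The mean DA percentile exceeded the mean 5-HT percentile by a median of 16.8 points over the 8 genes and of 13.0 points over all 10843. With equal numbers of peaks, 0 of 5 promoters had all DA libraries above, against 16.9%, and 0 of 5 had both 5-HT libraries above, against 13.1%. The median difference over these 5 genes was then −0.0393 points, against 0.275 points for all promoters. These 5 leave out the genes that lost a peak: *Fos* and *Egr2*, each without a peak in a DA library, stood higher in both 5-HT libraries, *Arc* had a peak in 5-HT replicate 2 only, and *Npas4* in none. With all peaks, DA lay above for 5 of 8 genes without DA replicate 1, against 82.1% of all promoters, for 5 without 5-HT replicate 1, against 81.1%, and for 6 without 5-HT replicate 2, against 64.8%. Without 5-HT replicate 1, 5-HT lay above for 1 of 8 genes, *Arc*, against 3.38%. DA lay above for 6 of 8 when each score was divided by the median score of its library, against 76.1%, and for 1 of 8 when percentiles were taken among promoter peaks, against 29.7%.

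Around the 9 genes, 60 regions with a peak in at least 1 library were found. Of these, 14 lay at a promoter of the genes themselves, 7 at promoters of neighbouring protein-coding genes such as *Rtn2*, *Reep2* and *Ado*, and 39 were distal, at no protein-coding promoter. By their centre, 28 of the 39 distal regions were intergenic, 3 lay in introns and 8 in exons. *Fosb* had 9 distal regions, *Fos*, *Junb* and *Ier2* had 6 each, *Arc* had 4, *Egr1* and *Npas4* had 3 each, and *Jun* and *Egr2* had 1 each. The median over the 8861 protein-coding genes shorter than 10 kb was 1, and 98.9% of them had fewer than *Fosb*.

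Within 20 kb, distal regions found in all 5 libraries were more frequent around the immediate early genes than elsewhere, mostly because of *Fos* and *Fosb*. A peak in all 5 libraries was present at 13 of the 39 (33.3%), against 5.77% of all 115722 distal regions and 9.81% of the 11589 distal regions in the windows of protein-coding genes shorter than 10 kb. Of these 13, 9 lay near *Fos* and *Fosb*, and without these genes it was 4 of 24 (16.7%). Only 1 of 39 (2.56%) had a peak in every DA library and no 5-HT library, against 14.5%, and 0 had a peak in both 5-HT libraries and no DA library, against 0.431%. The DA-only count was 2 without DA replicate 1 (5.26%, against 28.0% of all distal regions), 4 without DA replicate 3 (10.5%, against 21.2%) and 6 without 5-HT replicate 1 (16.7%, against 22.1%). The low share was not seen in a wider window: with 50 kb on each side, 11 of 78 distal regions (14.1%) were DA-only, close to the 14.5% of all distal regions, and 17 of 78 (21.8%) had a peak in all 5 libraries. With equal numbers of peaks, 23 distal regions remained, of which 9 (39.1%) had a peak in all 5 libraries, against 11.6%. In that setting 1 had a peak in the DA libraries only, against 9.46%, and 2 in the 5-HT libraries only, against 6.23%.

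**Figure D2:**
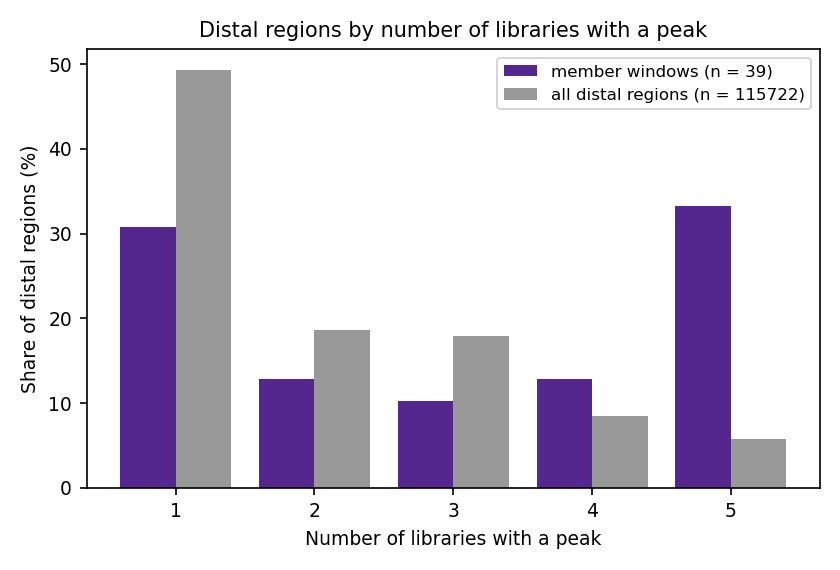
Share of distal regions (%) by the number of the 5 libraries with a peak, for the 39 distal regions around the immediate early genes (purple) and for all 115722 distal regions (grey). Regions with a peak in 5 libraries make up 33.3% of the purple and 5.77% of the grey bars, and regions with a peak in 1 library 30.8% and 49.3%.

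A peak was present at 23, 33 and 24 of the 39 distal regions in DA replicates 1, 2 and 3 (59.0, 84.6 and 61.5%), and at 25 and 14 in 5-HT replicates 1 and 2 (64.1 and 35.9%). The same shares over all distal regions were 33.9, 67.1 and 68.9% in the DA libraries and 22.3 and 10.6% in the 5-HT libraries. The distal regions near the genes were thus above the background in 4 of 5 libraries and below it in DA replicate 3. Of the 13 regions with a peak in all 5 libraries, 6 had all DA percentiles above both 5-HT percentiles, against 43.1% of such regions, and 0 had the reverse, against 3.04%. At equal numbers of peaks, DA was above at 2 of 9, against 15.2%, both near *Fos*, and 5-HT was above at 2 of 9, against 18.1%, both near *Fosb*.

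*Fos* is known to have several distal enhancers, and its neighbourhood held the distal region with the highest scores in the DA libraries. The region at chr12:86795668-86797006, intergenic and centred 18.5 kb upstream of the TSS, had scores of 12.7, 19.2 and 14.4 in DA replicates 1 to 3 and of 8.09 and 5.75 in 5-HT replicates 1 and 2. It ranked at percentiles of 96.3, 99.0 and 98.1 in the DA libraries and of 92.8 and 87.8 in the 5-HT libraries. DA stayed above 5-HT here with equal numbers of peaks. The intergenic region 12.2 kb downstream of the TSS, chr12:86826396-86827713, had scores of 11.0, 14.5 and 13.4 in the DA libraries and of 5.03 and 5.14 in the 5-HT libraries, and was also separated in both settings. A region 13.9 kb downstream, chr12:86828527-86828998, had scores of 10.4, 9.58 and 8.08, and of 4.98 and 5.09, and was separated with all peaks only. The region 1.71 kb upstream, chr12:86812763-86813496, was weaker and scored 4.47, 6.68 and 4.36 in the DA libraries and 4.82 and 3.50 in the 5-HT libraries. Its percentiles overlapped, and with equal numbers of peaks it was left in the 5-HT libraries only.

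Around *Fosb*, 5 distal regions had a peak in all 5 libraries, and 4 of them had overlapping percentiles. The intergenic region 9.94 kb upstream, chr7:19904760-19905917, had scores of 11.4, 15.2 and 12.2 in the DA libraries and of 8.49 and 7.41 in the 5-HT libraries. Its percentiles were 94.3, 97.4 and 96.6, and 94.4 and 95.3, with overlap. In the intron at chr7:19893358-19894441, centred 1.50 kb downstream of the TSS, the scores were 10.0, 12.1 and 11.2, and 7.64 and 6.00. That intronic region had DA above 5-HT with all peaks, and 5-HT above DA with equal numbers of peaks, as had the region 9.94 kb upstream. The other 3 regions with a peak in all 5 libraries lay 8.97 kb and 14.1 kb downstream, the latter in an exon of *Rtn2*, and 17.3 kb upstream. Their scores ranged from 3.91 to 7.64 in the DA libraries and from 3.05 to 6.12 in the 5-HT libraries, and the percentiles of the groups overlapped at each.

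*Junb* and *Egr1* each had a distal region that outscored the promoter in some libraries and not in others. Downstream of *Junb*, the intergenic region chr8:87499956-87500718, centred 2.28 kb from the TSS, had scores of 8.43, 8.75 and 9.18 in DA replicates 1 to 3 and of 5.24 and 3.71 in 5-HT replicates 1 and 2, with DA above by percentile with all peaks and overlap with equal numbers of peaks. The region 19.4 kb upstream of *Junb*, chr8:87521862-87522221 in an intron of *Hook2*, had scores of 7.63, 7.96 and 5.85 in the DA libraries and of 6.42 and 4.45 in the 5-HT libraries, with overlap. Upstream of *Egr1*, the intergenic region chr18:35009445-35010218, centred 11.0 kb from the TSS, had scores of 9.96, 7.04 and 9.33 in the DA libraries and of 5.57 and 5.17 in the 5-HT libraries. Its percentiles of 90.7, 77.7 and 91.9, and of 72.1 and 82.4, also overlapped. *Jun*, *Egr2* and *Ier2* had no distal region with a peak in all 5 libraries. Their distal regions with the highest mean score lay 14.1 kb, 5.03 kb and 2.43 kb from the TSS and had a peak in 3, 1 and 4 libraries. At *Jun* the scores were 4.05 and 3.79 in DA replicates 2 and 3 and 3.77 in 5-HT replicate 1, and at *Egr2* 3.63 in DA replicate 3, with 0 elsewhere. At *Ier2* they were 4.86, 7.53 and 5.32 in the DA libraries, 4.79 in 5-HT replicate 1 and 0 in 5-HT replicate 2.

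*Arc* had no distal region with a peak in all 5 libraries either, and 5-HT replicate 2 had no distal peak in its window. The only distal region of the 9 genes with a peak in every DA library and no 5-HT library was chr15:74490196-74490886, intergenic and 12.5 kb downstream of the *Arc* TSS, with scores of 4.90, 4.39 and 4.18. It was not among the 22879 highest-scoring peaks of any DA library. The distal region of *Arc* with the highest mean score over the 5 libraries, zeros included, chr15:74497923-74498502, lies 4.79 kb downstream of the TSS and had scores of 6.05, 6.95 and 6.73 in the DA libraries, 3.55 in 5-HT replicate 1, and 0 in 5-HT replicate 2. Another region, 19.9 kb upstream, scored higher in DA replicates 1 and 2, at 6.28 and 9.45, and was listed at 0 in the other 3 libraries. *Arc* is also known for an upstream enhancer, the synaptic activity-responsive element. In this direction, a region chosen after its values were seen, chr15:74509571-74510271, centred 6.92 kb upstream, had scores of 4.77, 5.40 and 5.97 in the DA libraries, 4.29 in 5-HT replicate 1 and 0 in 5-HT replicate 2. Whether it is that enhancer was not tested.

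Unlike its promoter, a region 12.1 kb upstream of the *Npas4* TSS had a peak in all 5 libraries, strong in the DA libraries and below the median score of 4.48 in 5-HT replicate 1. The intergenic region chr19:5001686-5002477 had scores of 9.02, 14.5 and 10.4 in DA replicates 1 to 3 and of 4.21 and 4.41 in 5-HT replicates 1 and 2. The percentiles were 87.0, 96.9 and 94.1 in the DA libraries and 42.2 and 70.8 in the 5-HT libraries, with DA above, and the groups overlapped with equal numbers of peaks, where 5-HT replicate 1 stood at 2.07. The remaining 2 distal regions of *Npas4* had a peak in DA replicate 2 only.

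**Figure D3:**
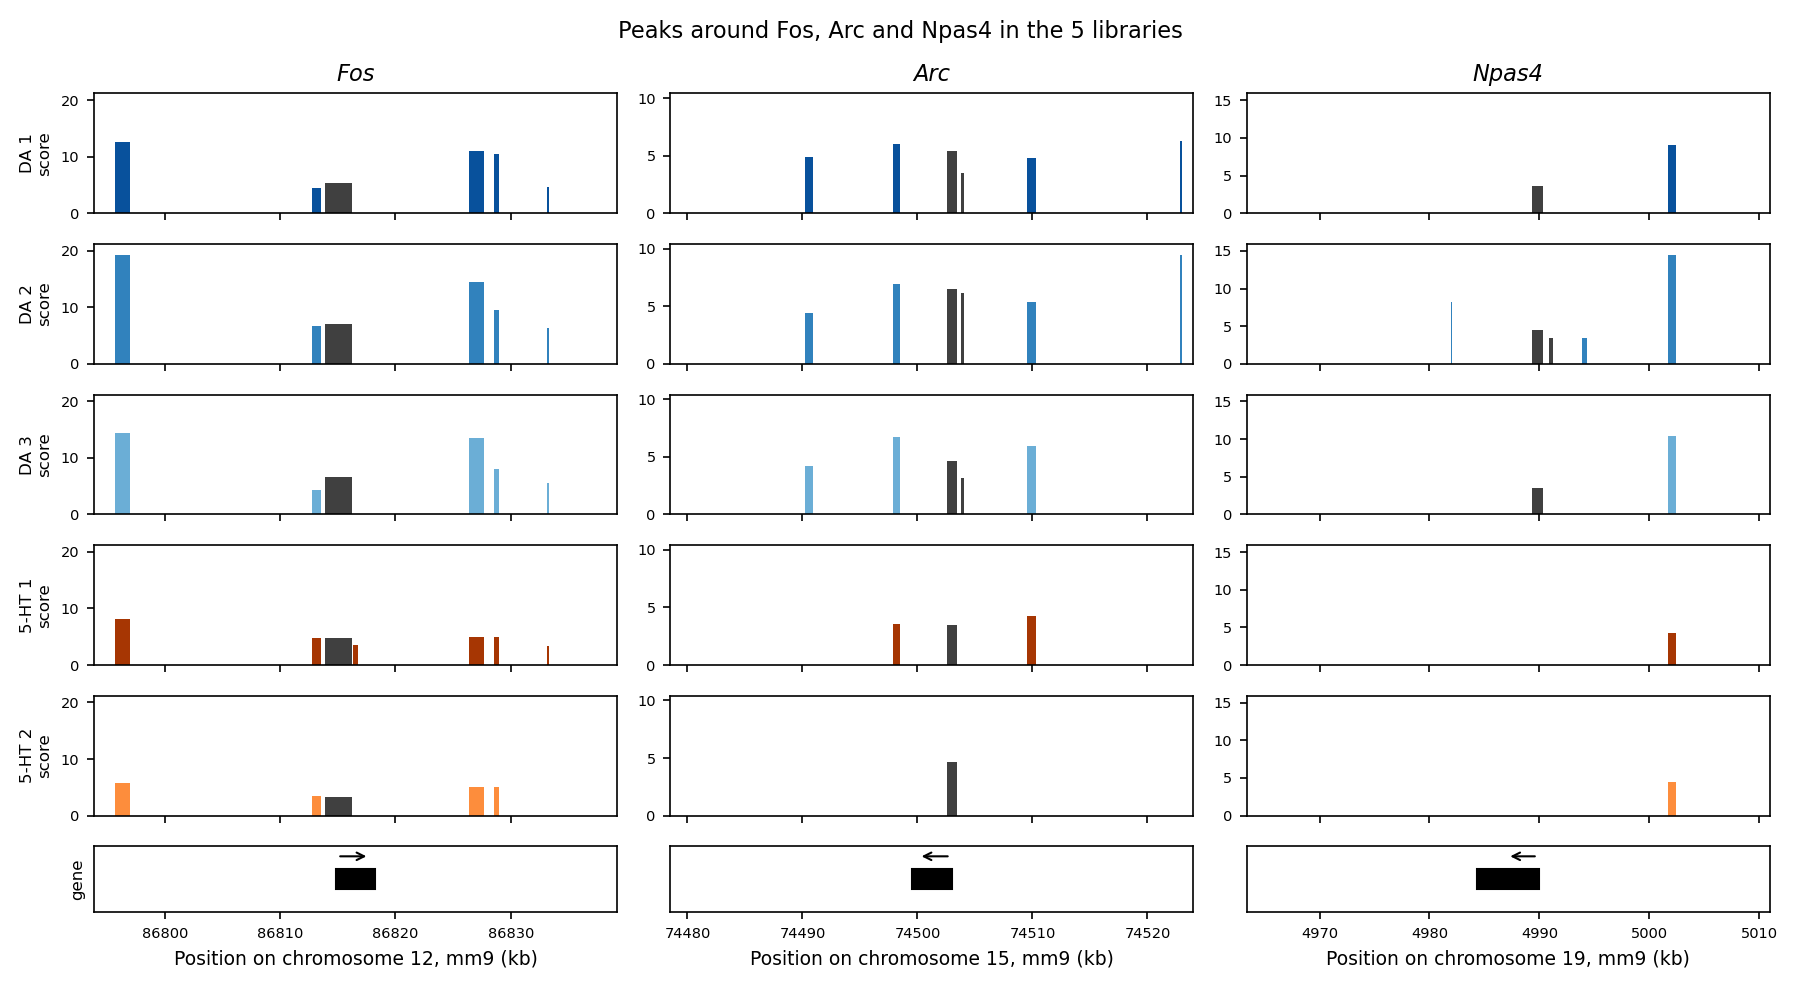
Scores (arbitrary scale of the deposited data) of the regions around *Fos*, *Arc* and *Npas4* in each of the 5 libraries, against the position in mm9 (kb). Coloured bars are distal regions, dark grey bars are regions at the promoter of the gene, each drawn at its true width, and the black box is the gene with an arrow for the direction of transcription. The region 18.5 kb upstream of *Fos* and the region 12.1 kb upstream of *Npas4* exceed the promoter in all 5 libraries.

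The distal region with the highest mean score outscored the promoter in each of the 5 libraries at *Fos*, *Fosb* and *Npas4*. For *Fos* this was the region 18.5 kb upstream, for *Fosb* the region 9.94 kb upstream, and for *Npas4* the region 12.1 kb upstream. Among genes with a promoter peak in all 5 libraries and a distal region in the window, which leaves out *Npas4*, the strongest distal region outscored the promoter in all 5 libraries for 2 of 8 members (25.0%), against 5.82% of 9465 protein-coding genes. These genes were not matched for their number of distal regions, which was 6 at *Fos* and 9 at *Fosb*. What this number does to the share was not tested. The promoters of *Jun*, *Egr2* and *Ier2* outscored the strongest distal region in 5 of 5 libraries. At *Junb*, *Egr1* and *Arc* the order changed between libraries, with the distal region higher in 2, 3 and 4 of 5.

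The sequences that the known regulators of these genes bind were looked for on both strands of mm9. In the 300 bases before the most upstream TSS, a CArG box was present for 2 of 9 genes, *Fosb* and *Egr1*, against 1.62% of all protein-coding genes, and in the 1000 bases before it, a window chosen after the first result was seen, for 5 of 9, with *Fos*, *Arc* and *Npas4*, against 5.62%. The CRE word TGACGTCA was present in 300 bases for 1 of 9 genes, *Ier2*, against 2.0%. Its shorter form TGACG, which the full word also contains, was present for 6 of 9 genes, all but *Jun*, *Egr2* and *Arc*, against 21.3%. The TATA box word TATAAA was present for 2 of 9 genes, *Fos* and *Junb*, against 14.6%. For the words that the products of these genes bind, the EGR word GCGNGGGCG was present for 2 of 9, *Fosb* and *Arc*, against 6.33%, and the AP-1 word TGANTCA for 0 of 9, against 7.12%. In the 1000 bases, TGACGTCA was present for 1 of 9 genes, against 2.56%, TGACG for 7, against 38.1%, TATAAA for 3, against 46.0%, GCGNGGGCG for 5, against 8.15%, and TGANTCA for 1, against 23.6%.

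Selected promoter stretches, chosen after the matches were seen, are shown on the strand of each gene: those around the CArG boxes of *Fos* and *Fosb*, the *Fos* TATA box, the CRE of *Ier2* and the paired TGACG of *Npas4*. They are printed with the CArG box, TGACGTCA, TGACG and TATAAA (or their reverse complements) in capitals. They cover bases −360 to −268 and −86 to −8 from the *Fos* TSS (chr12:86814480-86814572 and chr12:86814754-86814832, plus strand), −292 to −231 from the *Fosb* TSS (chr7:19895625-19895686, minus strand), −65 to −18 from the *Ier2* TSS (chr8:87186769-87186816, minus strand) and −199 to −145 from the *Npas4* TSS (chr19:4990116-4990170, minus strand). All lie upstream of the gene and within a region with a peak in at least the 3 DA libraries. Both *Fos* stretches lie in its promoter region, and are labelled distal and proximal by their distance from the TSS. The distal *Fos* stretch, at −360 to −268, and the *Fosb* stretch each hold a CArG box followed by CGTCA.
Fos, distal stretch: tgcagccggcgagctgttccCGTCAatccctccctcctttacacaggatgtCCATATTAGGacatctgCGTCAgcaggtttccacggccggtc
Fos, proximal stretch: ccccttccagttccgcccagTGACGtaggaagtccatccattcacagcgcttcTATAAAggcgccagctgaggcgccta
Fosb: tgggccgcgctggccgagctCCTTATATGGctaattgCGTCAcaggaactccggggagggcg
Ier2: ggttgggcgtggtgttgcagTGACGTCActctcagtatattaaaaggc
Npas4: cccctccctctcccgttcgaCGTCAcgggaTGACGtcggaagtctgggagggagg

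The CArG box of *Arc* lay at bases −933 to −924 from the TSS, inside the small promoter region with the centre 0.912 kb upstream, whose peaks in the DA libraries were lost with equal numbers of peaks. It is shown on the minus strand, chr15:74503904-74503953, with the CArG box in capitals.
Arc: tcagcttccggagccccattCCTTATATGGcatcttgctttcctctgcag

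The 39 distal regions had a median width of 453 bp, against 309 bp for all distal regions. What this does to the shares below was not tested. In the central 300 bases of the distal regions, a CArG box was present in 2 of 39, against 1.33% of all distal regions, TGACG in 11 of 39, against 11.4%, GCGNGGGCG in 4 of 39, against 0.445%, TGANTCA in 2 of 39, against 9.77%, and TGACGTCA in 0 of 39, against 0.321%. TATAAA was present in 3 of 39, against 14.4%. Among the 13 with a peak in all 5 libraries, TGACG was present in 5, against 16.3% of such regions, and GCGNGGGCG in 3, against 2.32%. TGANTCA and TATAAA were each present in 1 of the 13, against 7.26% and 10.3%, and TGACGTCA in 0, against 0.733%. The CArG box was present in 1, against 1.05%. That region was the one 12.2 kb downstream of *Fos*, which also held TGACG. Outside the central window, CArG boxes were found in the regions 2.28 kb downstream of *Junb*, 6.92 kb upstream of *Arc* and 12.1 kb upstream of *Npas4*, each of which also held TGACG. The other CArG box within the central window lay 4.16 kb upstream of *Npas4*, in a region with a peak in DA replicate 2 only, and is not shown. The word TGACGTCA was found outside it in the region 11.0 kb upstream of *Egr1*. The CArG box stretches of the regions with a peak in at least 4 libraries are shown on the plus strand of mm9, at chr12:86826978-86827093, chr8:87500483-87500572, chr15:74509696-74509775 and chr19:5001833-5001882, with the 85 bases at chr12:86796304-86796388 from the strongest *Fos* region, and the words in capitals as above. None overlaps an annotated exon.
Fos, 12.2 kb downstream: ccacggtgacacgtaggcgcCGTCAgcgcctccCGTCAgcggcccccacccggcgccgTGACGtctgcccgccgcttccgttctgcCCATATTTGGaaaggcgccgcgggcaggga
Junb, 2.28 kb downstream: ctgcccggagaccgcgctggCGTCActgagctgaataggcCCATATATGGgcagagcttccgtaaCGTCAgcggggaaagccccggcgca
Arc, 6.92 kb upstream: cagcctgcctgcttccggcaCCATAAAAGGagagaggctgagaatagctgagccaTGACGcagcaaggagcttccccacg
Npas4, 12.1 kb upstream: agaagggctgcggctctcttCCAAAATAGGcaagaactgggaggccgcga
Fos, 18.5 kb upstream: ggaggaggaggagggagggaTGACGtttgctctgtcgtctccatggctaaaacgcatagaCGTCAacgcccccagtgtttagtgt

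The other genes of the activity response were described in the same way, by the promoter percentile averaged over the libraries with a peak. A promoter peak in all 5 libraries, found for 48.5% of all protein-coding genes, was present for 5 of 8 genes of the FOS, JUN and EGR families of the members and of the NR4A family, to which no member belongs. Percentiles over this list went from *Egr3* at 90.7 to *Nr4a1*, an orphan nuclear receptor, at 20.9 and with no peak in 5-HT replicate 1. Of 28 further primary response genes, 25 had a peak in all 5 libraries. The highest was *Homer1*, a scaffold of excitatory synapses, at 95.8, and the lowest *Ier3*, at 0.929 with a peak in DA replicate 2 only, and *Csrnp1* had none in any library. All 10 late response genes had a promoter peak in all 5 libraries, from the neurotrophin gene *Bdnf* at 84.0 to *Rasgrp1*, an activator of RAS, at 48.5. Of 17 regulators that act upstream of the immediate early genes, 14 had a peak in all 5 libraries. *Mkl1*, an SRF coactivator, was highest at 98.6, and *Atf1*, a relative of CREB, lowest at 38.0. *Atf1* and the ELK family gene *Elk3* had a promoter peak in every DA library and no 5-HT library, as *Npas4* had. All DA libraries were above both 5-HT libraries for 3 of 5 genes of the first list, 12 of 25 primary response genes, 6 of 10 late genes and 8 of 14 regulators with all peaks, against 57.1% of all protein-coding promoters, and the reverse was found for none of them, against 0.553%.

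The protein-coding genes with the promoter percentiles most similar to those of *Jun*, the highest of the 8 genes, over the 5 libraries were *Zufsp*, *C030034I22Rik* and *Zfp948*. Their largest difference from *Jun* in any library was 1.17, 1.52 and 1.67 points.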

How the data were processed

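Reads had been trimmed (Trimmomatic), aligned to mm9 (Bowtie2), freed of duplicates (Picard) and used to call peaks (MACS2), which were joined with BEDOPS. The authors deposited a score for every shared region and library. Its scale, the peak threshold and the tool versions are not given in the sources used here. A line with a misspelled chromosome was read as chromosome Y.

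Regions were assigned with GENCODE M1 (mm9) by an overlap of at least 1 bp, scores were turned into percentiles within each library, and the highest-scoring region at a promoter stood for the gene. Groups were described by whether their libraries overlapped, beside the same share over all genes or regions. The members, lists and words were chosen with earlier results of these data known. All members were named, with the distal regions found in all 5 libraries or in all libraries of a single group, the strongest one of each gene (by mean score, zeros included), and from each list the highest, the lowest and those without a peak. Python 3.11.15, NumPy 2.4.6, pandas 2.3.3, SciPy 1.17.1 and matplotlib 3.10.9 were used, and the counts were tested on simulated regions. The 6 RNA-seq samples of the series were not analysed here.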

Additional observations from a re-analysis of the deposited data

How the results depend on the processing

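The number of members with a promoter peak in all 5 libraries, 8, was the same with a wider promoter (2 kb and 500 bp), with the most upstream TSS only, with regions less than 100 bp apart merged, and without each library in turn. It was 5 when the centre of the region had to lie in the promoter (33.9% of all protein-coding genes), and 5 with equal numbers of peaks (38.2%), against 48.5% in the main setting. The 3 promoters with DA above 5-HT became 0 with equal numbers of peaks, 6 with scores divided by the library's median (76.1% of all promoters), 1 with percentiles among promoter peaks (29.7%), and 4 to 6 without each library in turn (58.0 to 82.1%). The 0 promoters with 5-HT above DA became 0 to 1 without each library in turn (0.671 to 4.21% of all promoters). The 39 distal regions became 23 with equal numbers of peaks, 25 with 10 kb on each side and 78 with 50 kb. The 1 of 39 distal regions with DA peaks only (2.56%, against 14.5% of all distal regions) became 11 of 78 with 50 kb (14.1%, against 14.5%). Without each library in turn this count was 1 to 6 (2.63 to 16.7%, against 15.8 to 28.0%). The 13 of 39 with a peak in all 5 libraries (33.3%, against 5.77%) became 7 of 25 with 10 kb (28.0%, against 5.77%). The causes of these changes were not tested. No paired analysis was possible because the DA and 5-HT libraries come from independent sorts of different embryos, and no test was made. Peak lists hold no read counts, so a region listed at 0 may be open below the authors' threshold, and 5-HT replicate 2, with 22879 peaks, limits what can be found in all 5 libraries.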
